A study of Mus musculus with 8 samples.

Results

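Eednull cells are mouse embryonic stem cells (ESCs) of BALB/cR1 background with a point mutation in Eed, a core gene of Polycomb Repressive Complex 2. Their RNA was sequenced as ESCs (day 0) and at day 5 of directed differentiation towards spinal motor neurons, with 1 library at each time. Genes were taken into the comparison when they reached 1 FPKM (fragments mapped to the gene, scaled by transcript length and by all mapped fragments of the library) in either Eednull library and were above 0 in both, which left 15806 of the 36808 genes in the table. The question was what an Eednull line still changes under motor neuron conditions.

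The other libraries served as reference points. They were E14 wild-type cells (129/Ola) as ESCs and at day 5, Suz12delta cells (C57/BL6), in which SUZ12 is truncated, as ESCs and at day 5, Suz12GT cells (129/Ola), which carry a gene trap in Suz12, at day 5, and CJ7 wild-type ESCs (129/S). All ESCs were grown with LIF and serum on irradiated mouse embryonic fibroblasts, which were removed by a brief plating step before collection or differentiation. Differentiation of every line was by withdrawal of LIF with retinoic acid and a Hedgehog agonist. Each line is a single ESC line, each condition is 1 library, and no difference given here has a replicate check or a p-value. No other line shares the Eednull background, so between Eednull and any of them line and strain cannot be told apart.

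Polycomb Repressive Complex 2 places trimethylation on lysine 27 of histone H3 at silent developmental genes, and EED is the subunit that binds this mark and holds the catalytic subunit active. Retinoic acid enters the nucleus, binds the retinoic acid receptors and switches on their targets, which include the receptor gene Rarb, the Cyp26 enzymes that break retinoic acid down, and the Hox genes of the hindbrain and cervical cord. Hedgehog signalling turns on Gli1, Ptch1 and Hhip and, in neural progenitors exposed to retinoic acid, the ventral transcription factors that lead through Olig2 to motor neurons carrying Isl1, Mnx1, Lhx3 and Chat.

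The promoters of 2 genes are shown because they hold the classical retinoic acid receptor element and belong to the genes that answer retinoic acid most directly. The element is a direct repeat of the receptor motif with a spacer of 5 bases (DR5), and capitals mark its repeats. Each line gives the 100 bases before the RefSeq start site on the strand of the gene, build GRCm38.p6, from chr14:16575477-16575576 on the minus strand for Rarb and from chr19:37697708-37697807 on the plus strand for Cyp26a1.
Rarb: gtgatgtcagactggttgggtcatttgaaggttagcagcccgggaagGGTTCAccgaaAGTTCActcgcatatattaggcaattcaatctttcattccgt
Cyp26a1: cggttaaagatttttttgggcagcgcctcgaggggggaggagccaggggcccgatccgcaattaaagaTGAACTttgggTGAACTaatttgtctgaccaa
In Rarb the element begins 53 bases before the start and reads along the gene. In Cyp26a1 it begins 32 bases before the start and lies on the opposite strand.

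Both strands of each RefSeq promoter, from 250 bases before the start to 50 after it, were searched for this element. It was found in 31 of 27025 gene promoters (0.115%). Of the 23 retinoic acid genes listed for this report, 17 had a promoter in the table and 2 of these held the element, which were the pair shown. Among genes at least 4-fold higher at day 5 in Eednull, 1 of 460 matched promoters held it, which was again Rarb. Among genes at least 4-fold lower, 0 of 396 did. Of 15634 symbols compared, 9182 had a promoter in the table. A match describes these letters and not binding.

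The 2 Eednull libraries do not share an evident batch. The day 0 library was prepared and sequenced together with CJ7, which its label offers as wild-type control for batch normalization, while the day 5 libraries carry other numbers, and batch and day cannot be told apart. FPKM summed to 563239 in Eednull ESCs and to 403007 at day 5, with 17.5% and 8.68% of the sum in the 10 highest genes, which in ESCs were led by microRNA and unnamed loci. Across 15087 genes above 0 in all 8 libraries, log2 levels of Eednull ESCs were closest to CJ7 ESCs (r = 0.95) and then to E14 (r = 0.92) and Suz12delta ESCs (r = 0.90). Levels of Eednull cells at day 5 were closest to Suz12delta at day 5 (r = 0.97), with 95.3% of the genes within 2-fold. Against E14 at day 5, 77.2% of the genes were within 2-fold (r = 0.86), and against their own ESCs 70.0% (r = 0.82). These correlations are across genes of single libraries and describe the libraries only.

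Eed itself, on chromosome 7 of NCBI build 37 from 97103166 to 97129493, was at 42.4 FPKM in Eednull ESCs and at 11.5 FPKM at day 5. In E14 it was at 32.7 and 11.1 FPKM, in Suz12delta at 18.8 and 15.9, in CJ7 ESCs at 50.9 and in Suz12GT at day 5 at 12.9. Eednull and E14 thus lay side by side at both times. The allele is a point mutation, so these levels do not check the genotype.

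A change is given as the log2 ratio of day 5 to ESC after adding 0.1 FPKM to both values, which understates the change of low genes. Its median over the 15806 genes was 0.09, with quartiles of -0.52 and 0.73, and 47.0% of the genes changed by less than 1.5-fold. At least 2-fold higher at day 5 were 2833 genes (17.9%) and at least 2-fold lower were 2186 (13.8%), so that 56.4% of the changed genes were higher. Day 0 values were also multiplied by the ratio of E14 to CJ7 ESCs, a setting called the batch correction below. Both are single libraries of different lines and strains, so this ratio cannot tell batch from line. Under this setting the median moved to -0.18 and the split turned, with 2126 higher and 3437 lower (38.2% higher). At least 4-fold higher were 828 genes (5.24%) and at least 4-fold lower were 876 (5.54%). Of these 15806 genes, 15344 were above 0 in both E14 libraries, and 14% of them were at least 2-fold higher and 20% lower there, with 5.02% and 9.11% past 4-fold. In Suz12delta, with 15652 genes, the shares were 25.2% and 7.69%, and 5.87% and 2.98% past 4-fold. Lists are read below against these shares and not against 0.

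**Figure D1:**
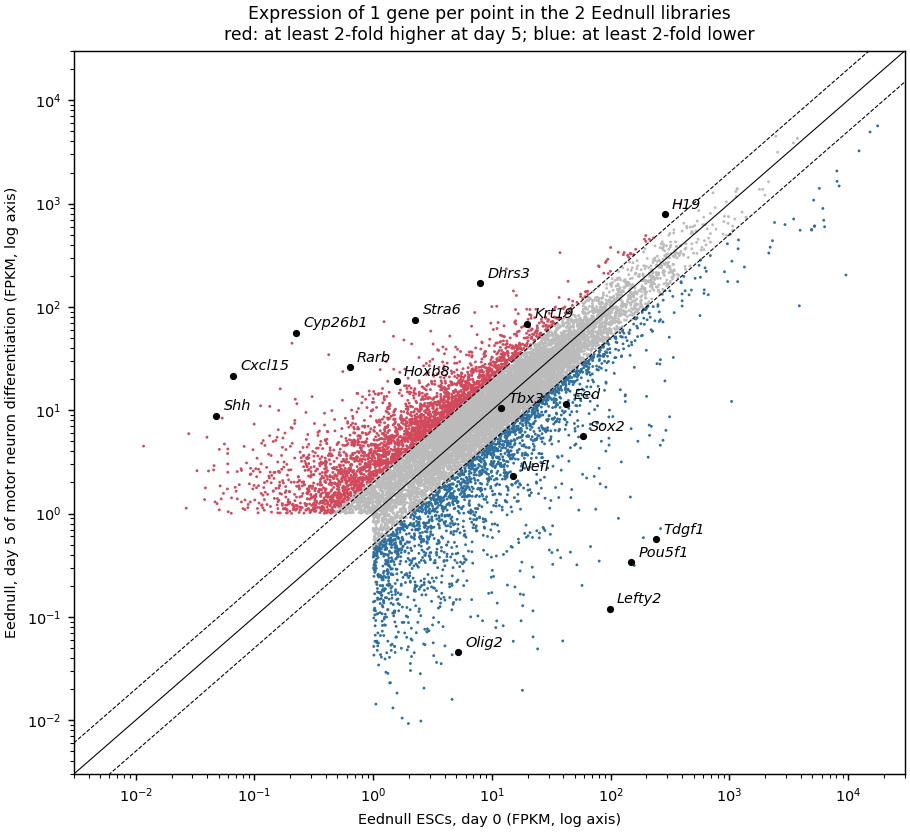
FPKM of each of the 15806 genes in Eednull ESCs (horizontal) and in Eednull cells at day 5 (vertical), both on log axes, with the solid line at equal values and dashed lines at 2-fold. Retinoic acid genes such as Cyp26b1, Rarb and Stra6 lie far above the line, the ESC genes Pou5f1, Tdgf1 and Lefty2 far below it, and Olig2 falls from 5.19 to 0.0455 FPKM.

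The minimum decides which low genes are counted: the member nearest to it had 1.00014 FPKM in its higher library and the first gene outside it 0.999856. A further 539 genes reached 1 FPKM in 1 Eednull library and were listed at 0 in the other, 304 of them at day 5 and 235 at day 0, and these are given as levels with no fold. The largest were Dnmt3l, the cofactor of the de novo DNA methyltransferases, at 186 FPKM in ESCs and listed at 0 at day 5, and the pluripotency factor Nanog at 107 FPKM and listed at 0. An exact 0 can also be a failed estimate. Tubb3 was listed at 0 in all 8 libraries, and Nsmaf and Sdcbp were listed at 0 in Eednull and CJ7 ESCs only.

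The ESC programme was shut down in Eednull cells. Of 27 listed ESC identity genes, 21 could be compared, and 20 of these fell at least 2-fold and 0 rose, against 13.8% and 17.9% of all genes. The median log2 ratio was -5.97, and 5 more of the list, Nanog, Prdm14, Dppa3, Fgf4 and Tcl1, went from 5.92 FPKM or more to being listed at 0. In E14 all 20 comparable members fell, with a median of -8.09, and in Suz12delta 19 of 21 with a median of -3.14. In a bulk library, fewer cells of a type and less RNA per cell cannot be told apart.

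Pou5f1, which encodes the pluripotency factor OCT4 (chromosome 17, 35642982 to 35647721), went from 149 FPKM in Eednull ESCs to 0.340 at day 5, a log2 ratio of -8.41. Its ESC level was 130 FPKM in E14, 142 in CJ7 and 58.1 in Suz12delta, and its day 5 level was 0.302 in E14, 1.80 in Suz12GT and 2.12 in Suz12delta. All 4 ESC libraries lay above all 4 day 5 libraries, and Eednull ended beside E14. Tdgf1, the Nodal co-receptor, fell from 244 to 0.563 FPKM. The Nodal antagonists Lefty1 and Lefty2 fell from 158 to 0.314 and from 98.6 to 0.12 FPKM, and their near-identical sequences make the division of reads between them uncertain. The same holds for Dppa5a, which fell from 264 to 0.715 FPKM, and Dppa5b, which fell from 189 to 0.583.

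Other members kept more RNA in Eednull cells than in E14. Tbx3, a T-box factor of naive ESCs that is also used in many embryonic tissues, was at 12.04 FPKM in Eednull ESCs and 10.4 at day 5. In E14 it went from 27.0 to 0.0815 FPKM, in Suz12delta it was at 19.7 and 14.5, in CJ7 ESCs at 28.5 and in Suz12GT at day 5 at 7.13. E14 was the lowest of the day 5 libraries by far. Klf5 fell from 26.6 to 6.76 FPKM in Eednull and from 23.0 to 0.154 in E14. Sox2, which marks both ESCs and neural progenitors, fell from 58.7 to 5.63 FPKM in Eednull (log2 ratio -3.36) and from 67.1 to 20.7 in E14. Among 10 primed epiblast genes, 6 fell, led by Otx2 from 12.5 to 0.402 FPKM, and 1, Sall2, rose from 4.38 to 13.3. Lef1 and Grhl2 were at 6.53 and 4.35 and at 3.54 and 6.96 FPKM in Eednull, whereas E14 at day 5 had Lef1 listed at 0 and Grhl2 at 0.0478.

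The retinoic acid response was present. Of 23 listed genes 21 could be compared, of which 16 rose and 2 fell, with a median log2 ratio of 2.33, and 13 rose at least 4-fold (5.24% of all genes). In E14, 14 of 19 comparable members rose with a median of 3.12, and in Suz12delta 16 of 20 with a median of 3.46. Under the batch correction of day 0, the Eednull count was 14 higher and 3 lower with a median of 2.24.

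Cyp26b1, which degrades retinoic acid (chromosome 6, 84521938 to 84543740), showed the largest rise of any gene named, from 0.226 to 56.2 FPKM, a log2 ratio of 7.43. The other ESC libraries were at 0.564 (E14), 0.362 (CJ7) and 1.48 FPKM (Suz12delta), and the other day 5 libraries at 61.8 (E14), 76.3 (Suz12delta) and 117 (Suz12GT). No ESC library came near any day 5 library. Rarb (chromosome 14, 17263356 to 17651381), one of the promoters shown above, rose from 0.632 to 26.2 FPKM (log2 ratio 5.17). Its ESC levels elsewhere were 0.445 FPKM in E14, 0.160 in CJ7 and 0.758 in Suz12delta, and its day 5 levels 22.7 in E14, 19.5 in Suz12delta and 29.6 in Suz12GT. For these genes the day 5 level of Eednull cells was of the size seen in wild type. Cyp26a1, the other promoter shown, rose from 5.78 to 20.8 FPKM (log2 ratio 1.83), against 0.305 to 9.84 in E14, so that the smaller ratio of Eednull went with a higher ESC level.

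Genes that take up, make or store retinoic acid stood higher in Eednull cells at day 5 than in E14. Stra6, the membrane receptor for retinol binding protein, rose from 2.26 to 75.5 FPKM in Eednull and was at 8.62 FPKM in E14, 29.1 in Suz12GT and 83.7 in Suz12delta at day 5. Dhrs3, a retinaldehyde reductase, rose from 7.94 to 170 FPKM, with 13.1 in E14, 57.4 in Suz12GT and 141 in Suz12delta. Aldh1a2, the main retinoic acid synthesising enzyme of the embryonic trunk, rose from 1.26 to 34.3 FPKM (log2 ratio 4.66), whereas E14 was at 0.983 and 0.935. Rdh10, which makes retinaldehyde, rose from 2.83 to 17.2 FPKM against 4.29 and 2.21 in E14. The order for all 4 was the same at day 5, with the Eednull and Suz12delta libraries highest and E14 lowest.

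The intracellular binding proteins stood lower than in E14 at day 5. Crabp1 was at 20.4 FPKM in Eednull ESCs and 11.8 at day 5, against 13.4 and 81.0 in E14, and Crabp2 was at 13.9 and 20.1 against 8.64 and 104. The nuclear receptors Nr2f1 and Nr2f2 rose from 1.48 to 52.0 and from 2.11 to 43.9 FPKM, and Meis1 and Meis2, the cofactors of HOX proteins, from 9.60 to 48.6 and from 12.7 to 65.6. Meis2 is listed at 0 in CJ7 ESCs, and under the batch correction that uses this library its log2 ratio of 2.36 turned to -3.59. Rarg and Cdx1 fell, from 29.1 to 6.37 and from 3.24 to 0.0421 FPKM.

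The Hedgehog pathway rose as well. Of 15 comparable genes of 16 listed, 10 rose and 1 fell, with a median log2 ratio of 1.36, against medians of 0.76 in E14 and 1.83 in Suz12delta. Under the batch correction, 7 rose and the median was 0.92. Shh, the ligand (chromosome 5, 28783355 to 28793641), rose from 0.0477 to 8.84 FPKM, a log2 ratio of 5.92. At day 5 it was at 1.71 FPKM in E14, 9.06 in Suz12delta and 10.4 in Suz12GT, and the other ESC libraries were at 0.0405 (E14), 0.0114 (Suz12delta) and 0.0677 (CJ7). The Eednull level at day 5 lay with those of the other mutants and above that of wild type.

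Receptors and targets of the pathway moved less. Ptch1, the receptor and target, rose from 18.5 to 64.9 FPKM in Eednull and was at 36.9 and 68.9 in E14. Hhip, a target that binds the ligand, rose from 0.181 to 6.01 FPKM, against 1.23 and 4.78 in E14. Gli1, the target that reports pathway activity, rose from 2.49 to 11.01 FPKM and was at 11.3 and 10.6 in E14, at 6.79 in CJ7 ESCs and at 3.53 in Suz12GT at day 5. The day 5 levels of Ptch1 and Gli1 in Eednull and E14 thus lay within 1.5-fold, and the ratios differed through the ESC libraries. With E14 ESCs in place of Eednull ESCs, the Gli1 log2 ratio was -0.04 in place of 2.10. The ligand-binding co-receptors Gas1, Boc and Cdon rose from 1.34 to 5.54, from 1.08 to 2.93 and from 4.58 to 10.1 FPKM. Foxa2, a floor plate and endoderm factor, rose from 2.61 to 13.5 FPKM, and Nkx2-2, a ventral neural target, fell from 1.17 to 0.150.

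**Figure D2:**
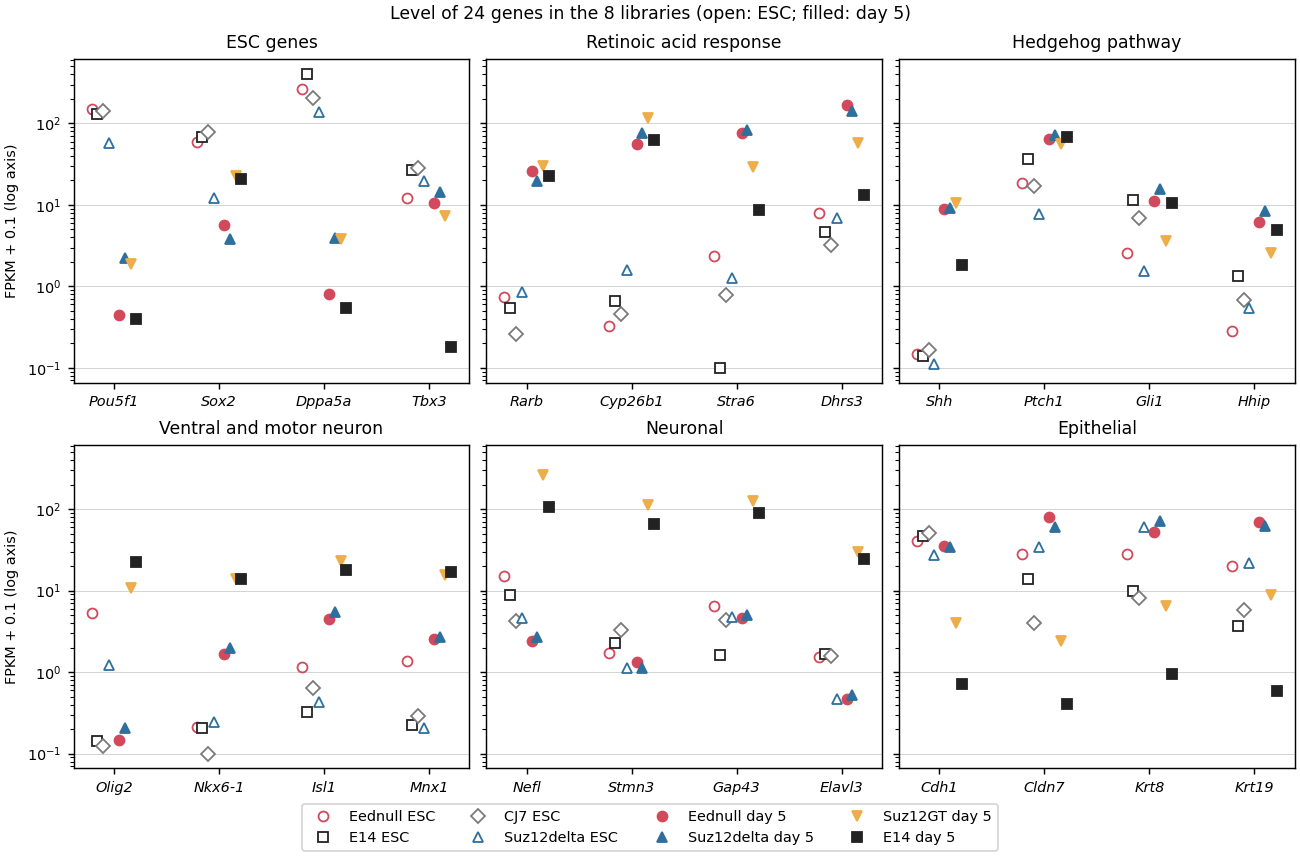
FPKM plus 0.1 (log axis) of 24 genes in 6 groups, with open symbols for the ESC libraries and filled symbols for day 5, 1 symbol per library. Eednull cells at day 5 reach E14 levels of Rarb, Cyp26b1, Ptch1 and Gli1 but lie at 0.0455 FPKM for Olig2 and 2.29 FPKM for Nefl. They keep Cdh1, Cldn7, Krt8 and Krt19, which are low in E14 at day 5.

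Motor neuron identity was largely absent at day 5, so the label of the library names the protocol used. Of 20 listed ventral domain and motor neuron genes, 11 could be compared, with 4 that rose, 5 that fell and a median log2 ratio of 0.56, while 7 stayed under 1 FPKM in both libraries. With E14 ESCs as day 0 the list had 6 higher, 0 lower and a median of 3.20, and with CJ7 ESCs 4 higher, 1 lower and 2.85. In E14, 10 of 10 comparable members of these rose, with a median of 5.30. Summed over the 11 genes, the level was 20.1 FPKM in Eednull ESCs and 19.9 at day 5, against 2.81 and 119.8 in E14.

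Olig2, the factor of motor neuron progenitors (chromosome 16, 91225795 to 91228922), was at 5.19 FPKM in Eednull ESCs and at 0.0455 at day 5, a log2 ratio of -5.18. In E14 it went from 0.0436 to 22.1 FPKM and in Suz12delta from 1.12 to 0.107, and it was at 0.0250 in CJ7 ESCs and at 10.5 in Suz12GT at day 5. Eednull and Suz12delta were the libraries with Olig2 above 1 FPKM as ESCs and the lowest ones at day 5. Its neighbour Olig1 fell from 3.29 to 0.189 FPKM against a rise from 0.0532 to 9.70 in E14. Nkx6-2 fell from 4.40 to 0.208 FPKM and Irx3 from 1.74 to 0.818. Lhx3, which specifies motor neurons, was listed at 0 in ESCs and at 0.356 FPKM at day 5, against 25.8 in E14 at day 5, and Chat, the enzyme that makes acetylcholine, was at 0.0900 and 0.0583 FPKM, against 7.61.

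A few genes of the list did rise, to levels under those of E14. Isl1 rose from 1.06 to 4.43 FPKM, with 18.1 in E14 and 22.8 in Suz12GT at day 5. Isl2 rose from 0.597 to 3.37 FPKM against 9.17 in E14, and Nkx6-1 from 0.114 to 1.56 against 13.9. Mnx1, which encodes the motor neuron factor HB9, was at 1.28 and 2.44 FPKM against 16.7 in E14 at day 5. Onecut2 rose from 0.273 to 5.21 FPKM and was among the 8 genes with the largest shared rise over the 3 lines. Isl1, Onecut2 and Foxa2 are also used in endoderm, and these values do not tell which cells held the RNA.

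Neurons in general were not evident. Of 21 pan-neuronal genes, 11 could be compared, 5 fell and 1, L1cam, rose from 1.22 to 3.55 FPKM, and 9 stayed under the minimum, Tubb3 among them as listed at 0 everywhere. The median log2 ratio was -0.82 in Eednull, 3.60 in E14 and 0.07 in Suz12delta. The sum of the 11 genes went from 114.8 to 40.7 FPKM in Eednull and from 131.7 to 648 in E14. Nefl, the light neurofilament, was at 15.2 FPKM in Eednull ESCs and 2.29 at day 5, whereas E14 went from 8.69 to 106. Suz12delta was at 4.52 and 2.64 FPKM, CJ7 ESCs at 4.19 and Suz12GT at day 5 at 261, so that Eednull at day 5 was the lowest of all 8 libraries. Stmn2, Ina, Mapt and Elavl3 fell from 49.9 to 4.59, from 11.6 to 1.19, from 4.20 to 1.08 and from 1.43 to 0.373 FPKM. Prph, a neurofilament protein of motor neurons, fell from 10.1 to 0.282 FPKM against a rise from 2.60 to 8.39 in E14.

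Neural progenitor genes were mixed. Of 16 listed genes 8 could be compared, 2 rose and 4 fell, with a median log2 ratio of -0.73. In E14 4 of the 8 rose and 1 fell, with a median of 0.97. The Eednull median was -2.29 under the batch correction, with 3 higher and 5 lower. With E14 ESCs as day 0 it was -1.78, with 1 higher and 5 lower. Hes5, Fabp7, Neurog1, Neurog2, Neurod1 and Neurod4 were among those that stayed under 1 FPKM at both times. Msi1 rose from 7.51 to 18.1 FPKM and Zic1 from 1.75 to 6.69. Pax6, used from neural progenitors to the eye and pancreas, was at 5.69 and 9.35 FPKM, against 8.99 and 21.9 in E14. Sox3 fell from 4.61 to 0.845 FPKM in Eednull and rose from 3.14 to 17.4 in E14. Neurog2 at day 5 was at 0.0398 FPKM in Eednull and 20.7 in E14.

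Genes of the Hoxa, Hoxb and Hoxc clusters rose in Eednull cells, in 9 of 11, 9 of 9 and 7 of 9 comparable genes, while of 4 comparable Hoxd genes 0 rose and 1 fell, with a median log2 ratio of -0.14. Of 39 Hox genes 33 could be compared, 25 rose and 1, Hoxd11, fell, with a median log2 ratio of 1.83, and Hoxd3, Hoxd4 and Hoxd8 were listed at 0 in ESCs and stood at 10.7, 4.97 and 3.75 FPKM at day 5. In ESCs, 21 of 39 Hox genes were at 1 FPKM or more in Eednull and 1 of 39 in E14. With CJ7 or E14 ESCs as day 0, 35 and 32 genes were counted as higher. At day 5, 36 were at 1 FPKM or more in Eednull and 19 in E14.

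The day 5 levels differed by position in the cluster. Among paralogues 1 to 8, which serve the hindbrain, cervical and upper trunk levels, all 18 comparable genes of 23 rose, to a median of 4.97 FPKM at day 5 over the 23, against 18.0 in E14. Among paralogues 9 to 13, which serve lower levels, 7 of 15 rose, and the median of the 16 genes at day 5 was 2.79 FPKM in Eednull, 2.32 in Suz12delta, 0.0062 in E14 and 0.0321 in Suz12GT. In Eednull ESCs it was already 1.56 FPKM. Of these posterior genes 15 of 16 reached 1 FPKM in Eednull at day 5 and 12 of 16 did as ESCs, against 14 in Suz12delta and 1 in E14 at day 5. Hoxb8 (chromosome 11, 96143219 to 96146639) rose from 1.57 to 19.03 FPKM in Eednull and from 0.256 to 91.2 in E14. Hoxa10 (chromosome 6, 52181196 to 52190853) was at 8.23 FPKM in Eednull ESCs and 12.2 at day 5, and was listed at 0 in both E14 libraries. Hoxb13 rose from 1.03 to 6.84 FPKM and was listed at 0 in E14 at day 5. Hox transcripts overlap within their clusters and the counting is not stated to use strand, so single values may hold reads of neighbours.

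**Figure D3:**
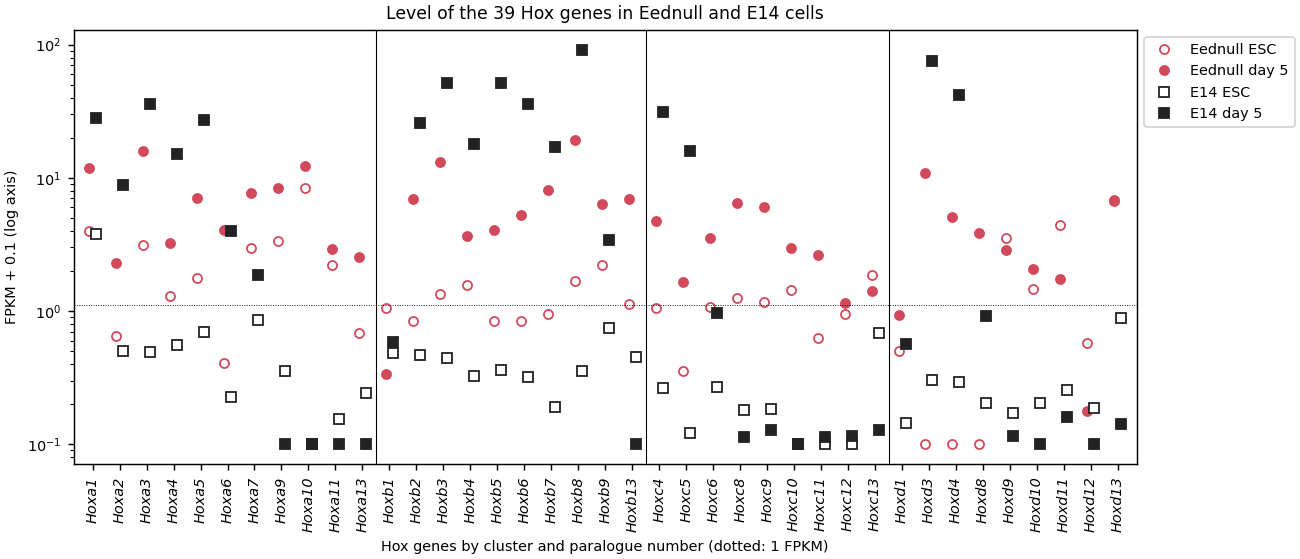
FPKM plus 0.1 (log axis) of the 39 Hox genes, ordered by cluster and paralogue, in Eednull (circles) and E14 (squares), open for ESC and filled for day 5. E14 at day 5 is high for low paralogue numbers and drops towards 0 for the posterior genes, whereas Eednull at day 5 lies at 1 FPKM or more for 36 of 39 genes.

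Of the 13 genes of the epithelial to mesenchymal list, 2 were higher and 2 lower in Eednull, with a median of 0.18. In E14 the list was mixed, with 4 higher and 8 lower and a median of -3.07, and the genes named here are among those that fell there. Under the batch correction 2 were higher and 5 lower in Eednull, with a median of -0.31. Cdh1, which encodes E-cadherin, was at 40.0 FPKM in Eednull ESCs and 35.7 at day 5, and at 46.8 and 0.608 in E14. Cldn7, a tight junction claudin (chromosome 11, 69778281 to 69781387), rose from 28.4 to 79.1 FPKM in Eednull and fell from 13.7 to 0.311 in E14, with 34.5 and 60.6 in Suz12delta, 3.90 in CJ7 ESCs and 2.29 in Suz12GT at day 5. Its log2 ratio of 1.48 turned to -0.31 under the batch correction. Esrp1, the epithelial splicing factor, was at 7.62 and 6.88 FPKM in Eednull against 17.2 and 0.0760 in E14. Epcam, an epithelial adhesion molecule, fell from 35.03 to 11.7 FPKM in Eednull and from 24.1 to 0.436 in E14.

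Of 9 comparable trophoblast genes, 4 rose and 2 fell, with a median of 0.93, and in E14 7 of 7 fell with a median of -2.59. Krt7 rose from 4.86 to 32.7 FPKM and Gata3 from 2.80 to 15.7, while E14 had 0.181 and 0.118 at day 5. Krt8 and Krt18 were at 27.9 and 53.1 and at 30.6 and 37.8 FPKM in Eednull, and at 0.845 and 1.83 in E14 at day 5. Elf5 rose from 0.0595 to 3.03 FPKM and Cdx2 from 2.62 to 5.79, whereas Eomes fell from 2.34 to 0.199 and Tpbpa, a marker of spongiotrophoblast, was at 0.0813 FPKM in ESCs and listed at 0 at day 5. Of the 4 comparable surface ectoderm genes, Krt19 rose from 19.8 to 68.9 FPKM and Dsp, which encodes desmoplakin, from 5.41 to 18.9, and Krt17 fell from 3.61 to 0.377. The defining gene Trp63 was listed at 0 at both times and Krt5 was at 0.110 and 0.248 FPKM.

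Of 11 comparable endoderm transcription factors 3 rose and 3 fell, with Foxa1, from 1.34 to 8.17 FPKM, and Foxa2 among them. Sox17, Sox7 and Eomes fell, from 3.90 to 1.09, from 1.71 to 0.536 and from 2.34 to 0.199 FPKM. Gata4 and Gata6 were at 11.4 and 12.1 and at 4.27 and 4.07 FPKM, against 0.653 and 0.168 in E14 ESCs. Their level was thus already present at day 0. With CJ7 ESCs as day 0 the list had 8 higher and 1 lower, with a median of 2.94, and with E14 ESCs 7 higher and 1 lower, with a median of 3.96, against 0.30 from Eednull ESCs. The Sox17 log2 ratio was 2.71 when CJ7 ESCs, at 0.0824 FPKM, took the place of Eednull ESCs.

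Products of extraembryonic endoderm fell more often than they rose, with 8 lower and 4 higher of 19 and a median of -0.80. With CJ7 and E14 ESCs as day 0 the median was 1.21 and 2.04. The sum of these RNAs was 748 FPKM in Eednull ESCs, against 266.5 in CJ7 and 381.6 in E14 ESCs. It was led by Sparc, at 287 FPKM against 82.4 and 74.4, while Apoe was at 146 against 89.1 and 200.6. Apoa2 fell from 14.8 to 1.91 FPKM, Cubn from 8.09 to 1.72 and Apoe from 146 to 34.0. Afp, Apoa1 and Rbp4, plasma proteins of visceral endoderm and liver, rose from 0.0772 to 2.72, from 0.208 to 4.79 and from 1.78 to 8.06 FPKM. Afp was listed at 0 in both E14 libraries.

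Of 10 comparable primitive streak and mesoderm genes 5 rose and 5 fell. The primitive streak genes T, Fgf8 and Wnt3 fell from 11.4 to 0.671, from 15.6 to 0.195 and from 1.13 to 0.244 FPKM. Meox1, Hand2, Foxc1 and Pdgfra, used in somites, limb, heart and mesenchyme, rose from 2.34 to 8.51, from 0.403 to 2.76, from 0.471 to 1.95 and from 3.16 to 10.98 FPKM. The median was -0.05 in Eednull, 0.49 under the batch correction and -1.94 in E14. With CJ7 or E14 ESCs as day 0 it was 2.91 and 2.61. Of 9 comparable blood and endothelium genes 1 rose, Kdr, the endothelial growth factor receptor, from 0.671 to 7.49 FPKM. Pecam1, Tek and Runx1 fell, from 8.51 to 0.441, from 1.58 to 0.424 and from 3.06 to 0.757 FPKM. The embryonic globins Hba-x and Hbb-y were listed at 0 in ESCs and stood at 24.8 and 18.3 FPKM at day 5, the highest of all libraries for both, and Hbb-bh1 at 6.02. Gata1, the erythroid factor, was at 0.0760 and 0.175 FPKM. Cardiac genes were at 4.85 FPKM or less at day 5, with Myl3 highest.

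Among the 5 comparable of 14 spinal interneuron genes 4 rose and 0 fell. Of these, Gata2, which rose from 1.01 to 11.97 FPKM, and Gata3 are used in trophoblast and blood as well, Pax2 rose from 0.672 to 8.74 and is used in kidney and ear, and Lhx1 rose from 0.680 to 2.22. The markers En1, Evx1, Lbx1, Sim1 and Bhlhe22 stayed under 1 FPKM. Of 6 comparable neural crest genes 4 rose, Sox9 from 1.28 to 9.76 FPKM and Ednrb from 0.149 to 2.51 among them, and Foxd3 fell from 3.69 to 0.136. Sox10, which defines crest, was at 0.285 and 0.0427 FPKM.

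Within each line sequenced at both times, fibroblast genes summed higher in the ESC library, where irradiated fibroblasts had been plated with the cells. Across lines this did not hold, since Suz12delta at day 5 lay above E14 and CJ7 ESCs. The 18 markers summed to 419 FPKM in Eednull ESCs and 117.3 at day 5, against 177.5 and 11.3 in E14, 944 and 196.8 in Suz12delta and 175.2 in CJ7 ESCs. In Eednull, 9 of 18 fell and 2, Lum and Dcn, rose from 0.136 to 1.17 and from 0.708 to 3.26 FPKM, with none listed at 0 at either time. The median was -0.97, and with CJ7 or E14 ESCs as day 0 it was -0.07 and 0.07. Col1a1 and Col1a2 fell from 104 to 8.68 and from 96.5 to 8.60 FPKM, and S100a4, which fibroblasts express strongly, from 45.9 to 0.423. The part of fibroblast RNA in these falls, and in the mesenchymal genes above, was not tested.

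Of 11 Polycomb Repressive Complex 2 genes 4 fell and 0 rose in Eednull, with a median of -0.39. Those that fell were Eed, Suz12 from 35.7 to 17.6 FPKM, Jarid2 from 32.6 to 14.9 and Phf19 from 2.96 to 1.196. In E14 7 of 11 fell, with a median of -1.17, and in Suz12delta 0 fell and 2 rose. Under the batch correction 2 fell in Eednull. Ezh2, the catalytic subunit, was at 66.7 and 76.0 FPKM. Of 19 Polycomb Repressive Complex 1 genes 6 rose and 2 fell, with a median of 0.51 that was -0.06 under the batch correction. Bmi1, Cbx8 and Phc2 rose from 10.52 to 36.96, from 0.911 to 3.70 and from 12.1 to 37.9 FPKM, and each also rose in E14 and Suz12delta. Phc1 fell from 107 to 22.7 FPKM. The de novo methyltransferase Dnmt3b fell from 53.1 to 6.96 FPKM and Tet1 from 24.9 to 3.82, and Tet3 rose from 1.88 to 11.5, as in E14.

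The changes were set beside those of lines that share no library with Eednull. Across 15277 genes above 0 in all 6 libraries, the Eednull change correlated with the E14 change at r = 0.57 (Spearman's rho 0.53) and with the Suz12delta change at r = 0.63 (rho 0.53). Among the 741 genes with a 4-fold or larger fall in Eednull, 574 (77.5%) fell at least 2-fold in E14 and 33 rose, against 19.9% and 13.9% of all these genes. In Suz12delta 400 of the 741 (54.0%) fell, against 7.21% of all these genes, 314 (42.4%) changed less and 27 rose. Among the 731 with a rise of that size, 413 (56.5%) rose at least 2-fold in E14, 60 fell and 258 (35.3%) changed less. In Suz12delta, 584 of the 731 (79.9%) rose, against 24.99% of all these genes. Rises of at least 4-fold in both Eednull and Suz12delta numbered 373, and 127 of these were under 2-fold higher in E14, with 19 at least 2-fold lower. Most of the 373 thus rose at least 2-fold in E14 as well. Of all 15277 genes, 13.9% were at least 2-fold higher in E14 and 19.9% at least 2-fold lower.

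**Figure D4:**
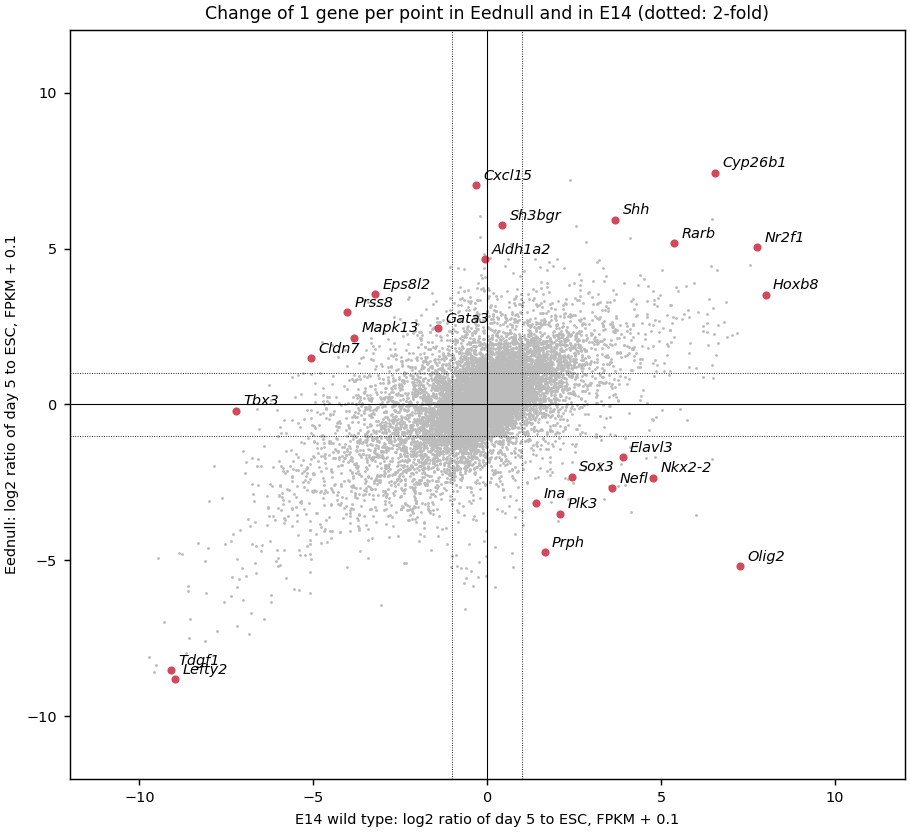
Log2 ratio of day 5 to ESC in E14 (horizontal) and in Eednull (vertical), 1 grey point per gene for 15277 genes, dotted lines at 2-fold and named genes in red. Cyp26b1, Rarb, Nr2f1 and Hoxb8 rose in both, Tdgf1 and Lefty2 fell in both, Olig2, Nefl and Prph rose in E14 and fell in Eednull, and Cldn7, Prss8 and Mapk13 did the reverse.

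The genes with the largest shared rise over Eednull, E14 and Suz12delta were Cyp26b1, Nr2f1, Rarb, Tmem132e, Chrna3, Gfra3, Onecut2 and Shh. Among those with the largest shared fall were Fosb, Lefty2, Gdf3, Tdgf1, Lefty1, Dppa5b and Dppa5a. Fosb, an immediate early gene, went from 18.5 to 0.164 FPKM in Eednull and from 27.8 to 0.0691 in E14. Chrna3, a nicotinic receptor subunit, rose from 0.174 to 5.38 FPKM in Eednull and to 18.1 in E14.

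Genes that rose far more in Eednull than in E14 were chosen for that difference, which is therefore a description. Cxcl15, a chemokine of epithelia, rose from 0.0658 to 21.6 FPKM in Eednull and from 0.0995 to 25.9 in Suz12delta, and was at 0.163 and 0.110 in E14. Upk1a, a urothelial membrane protein, rose from 1.29 to 29.6 FPKM, Prss8, a membrane protease of epithelia, from 2.91 to 23.2, and Eps8l2 from 4.42 to 52.3, while all 3 fell in E14, to 0.758, 0.141 and 0.281 FPKM. Mapk13, Ror1, B4galnt2, Bdh2 and Tgfbi also rose in Eednull, to between 6.85 and 42.2 FPKM, and fell in E14. Sh3bgr rose from 1.23 to 72.0 FPKM in Eednull and was at 1.52 and 2.10 in E14. In Suz12delta at day 5 these 10 genes lay between 2.99 and 52.1 FPKM. Eps8l2, Mapk13 and Tgfbi did not pass 2-fold there, from ESC levels of 14.2, 16.4 and 17.1 FPKM to 23.2, 25.1 and 32.7.

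The genes with the largest deficit to E14 were Olig2, Prph, Nefl, Rgs16, Plk3, Mtap6, Slc16a3, Ina, Arl4d and Hoxb8. The stress kinase Plk3 fell from 20.2 to 1.68 FPKM and rose in E14 from 14.9 to 64.2, and Mtap6, a neuronal microtubule protein, fell from 6.65 to 1.09 against a rise from 2.68 to 15.4. Slc16a3, the lactate exporter, fell from 97.0 to 5.36 FPKM. Hoxb8 is on this list because its rise was smaller than in E14, and not because it fell. The remaining large rises were Emid2 from 0.207 to 44.5 FPKM, Cldn11 from 0.0598 to 11.2 and the mesothelial and kidney factor Tcf21 from 0.0535 to 8.39. Fam183b, Krt4, the hormone gene Sst, Arg1 and Ntsr1 completed them, each reaching between 5.48 and 12.8 FPKM. At day 5 E14 stood higher than Eednull for Sst and Arg1, at 25.5 and 15.4 FPKM, and lower for the others.

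**Figure D5:**
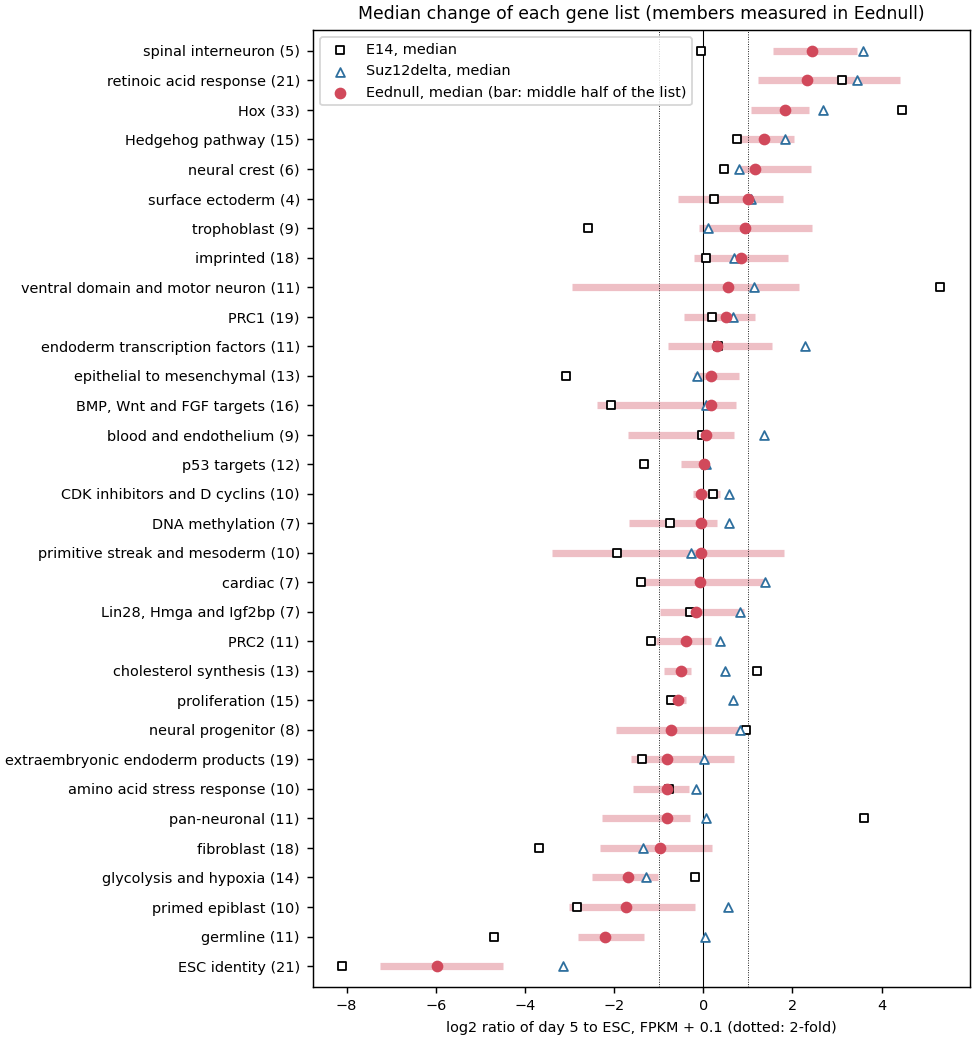
Median log2 ratio of day 5 to ESC for each of 32 gene lists in Eednull (red, with a bar over the interquartile range), E14 (squares) and Suz12delta (triangles), with the number of comparable genes in brackets and dotted lines at 2-fold. For E14 and Suz12delta only genes above 0 in both libraries of that line are counted, and wide gaps between Eednull and E14 are seen at the ventral and motor neuron and the pan-neuronal lists.

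Glycolysis genes fell. Of 14 genes of glycolysis and the hypoxia response, 10 fell at least 2-fold and 0 rose, with a median of -1.69 in Eednull, -1.29 in Suz12delta and -0.19 in E14. Slc2a1, the basal glucose transporter (chromosome 4, 118781316 to 118809935), fell from 121 to 15.8 FPKM in Eednull and was at 90.4 and 142 in E14. Ldha, lactate dehydrogenase A, fell from 312 to 50.9 FPKM against 140 and 173 in E14, and Eno1 from 572 to 193 against 462 and 313. With CJ7 ESCs as day 0 the count was 6 lower and 1 higher. Cholesterol synthesis genes had a median of -0.51 in Eednull, with 2 of 13 lower and 0 higher, and 1.204 in E14, where 9 of 13 rose. Of 12 p53 target genes 0 passed 2-fold in Eednull, with a median of 0.03 that was -0.71 under the batch correction, and 9 of 12 fell in E14.

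Proliferation genes stayed on. Of 15 such genes 1, Ccnb1, fell, from 126 to 58.0 FPKM, and the median of -0.57 lay beside that of E14 at -0.72. Mki67 was at 18.4 and 22.0 FPKM. Of the cell cycle inhibitors, Cdkn2a rose from 28.8 to 66.6 FPKM and fell in E14 from 10.1 to 3.11, while Cdkn1c fell from 13.7 to 3.17 and rose in E14 from 7.43 to 26.1. Cdkn1a was at 32.6 and 33.1 FPKM.

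Longer transcripts were higher at day 5 relative to shorter ones. Among protein coding genes in 5 groups of transcript length, the median log2 ratio went from -0.10 in the shortest (up to 1678 bases) to 0.38 in the longest (4862 bases or more), and the share at least 2-fold higher from 14.2% to 24.4%. In E14 the medians were -0.25 and 0.04. The part of this in any list was not tested. By chromosome the median differed from that of all these genes by between -0.15 and 0.09.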

How the data were processed

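RNA-seq of 8 libraries was used, each the only one of its line and time, as ESCs or at day 5. The authors deposited FPKM per gene, and the submitters' processing notes name Cufflinks 1.2.1, Cuffdiff, Bowtie 0.12.7 and TopHat 1.3.2, with coordinates of NCBI build 37. Counts of reads were not used, so depth and counting error are unknown. Values were used as deposited, with columns assigned from their names and the labels.

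Log2 ratios used a pseudocount of 0.1 FPKM, over genes at 1 FPKM or more in either Eednull library and above 0 in both. A gene was said to rise or fall past 2-fold. The members and the 32 gene lists (478 genes, 8 of them not analysed here) were chosen with earlier results of these data known. Of symbols listed more than once, the one with the highest mean level was used. Genes named outside the lists were the 12 largest rises and falls, the 8 largest shared over 3 lines and the 10 largest excesses and deficits to E14, at 5 FPKM or more in the higher library, passing over 2571 of 11148 genes with model, clone, small RNA, mitochondrial, histone, ribosomal, pseudogene or receptor-cluster names. Coordinates are from GENCODE vM1, which held 36104 of the identifiers. The scripts were tested on simulated data. Python 3.11.15, NumPy 2.4.6 and pandas 2.3.3 were used. The 8 alternatives are given at the end. Values of some listed or named genes are not reported here.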

Additional observations from a re-analysis of the deposited data

Results flagged for a closer look

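In 37 of the genes named, the change from ESC to day 5 was at least 2-fold in Eednull and at least 2-fold in the other direction in E14. Part of these genes were named for their excess or deficit to E14, so their opposite direction follows from that choice. Of genes above 0 in all 6 libraries, 2661 rose at least 2-fold in Eednull, and 220 of these fell at least 2-fold in E14. A further 1980 fell in Eednull, and 86 of these rose in E14. Each line has 1 library a time, so the difference between the lines was not tested, and line, strain and batch cannot be told apart. Values are log2 ratios of day 5 to ESC, Eednull first and E14 second.

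Of the 37, the following neural genes were lower in Eednull and higher in E14. Other neural genes rose in both lines, such as Nkx6-1 at 2.96 and 6.07 and Isl1 at 1.97 and 5.83. With E14 ESCs as day 0, the ventral domain and motor neuron list had 6 higher and 0 lower in Eednull. The ventral factors were Olig2 at -5.18 and 7.27, Olig1 at -3.55 and 5.999, Nkx6-2 at -3.87 and 1.03, Nkx2-2 at -2.34 and 4.78 and Irx3 at -1.005 and 3.24. The progenitor factor Sox3 was at -2.32 and 2.43. The neuronal structural genes were Prph at -4.74 and 1.65, Ina at -3.17 and 1.40, Nefl at -2.68 and 3.60, Mtap6 at -2.51 and 2.48, Mapt at -1.87 and 3.23 and Elavl3, an RNA-binding protein of neurons, at -1.69 and 3.90. Rgs16 was at -3.73 and 2.03, Plk3 at -3.51 and 2.10 and Arl4d at -2.35 and 2.23. The imprinted growth inhibitors Cdkn1c and Grb10 were at -2.08 and 1.80 and at -1.86 and 1.79.

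Epithelial and trophoblast genes were higher in Eednull and lower in E14. They were Upk1a at 4.42 and -1.08, Eps8l2 at 3.53 and -3.23, Prss8 at 2.95 and -4.03, Krt7 at 2.72 and -1.28, Gata3 at 2.45 and -1.41, Krt19 at 1.79 and -2.64, Cldn7 at 1.48 and -5.07 and Cdx2 at 1.11 and -2.18. Cldn7 was at -0.31 in Eednull under the batch correction of day 0. These genes are the part of their lists that met the rule. Of 9 comparable trophoblast genes 4 rose and 2 fell in Eednull, and of 13 epithelial to mesenchymal genes 2 rose and 2 fell. Genes used in mesenchyme or muscle were Ror1 at 3.27 and -3.24, Tgfbi at 2.74 and -2.51, Myl3 at 2.64 and -1.40, Dcn at 2.06 and -1.32, Foxc1 at 1.85 and -1.05 and Pdgfra at 1.76 and -1.70. The others were B4galnt2 at 3.44 and -2.26, Bdh2 at 2.82 and -2.68, Mapk13 at 2.14 and -3.83, H19 at 1.47 and -2.61, Stra8 at 1.22 and -1.61 and Cdkn2a at 1.21 and -1.66.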

How the results depend on the processing

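The counts of 2833 genes higher and 2186 lower stayed within 1.5 times with a pseudocount of 1 or none, with 75th percentile scaling, and with CJ7 or E14 ESCs as day 0. A minimum of 5 FPKM gave 1649 and 1324, with fewer genes tested. With no minimum, 3465 were lower, with more low genes tested. Multiplying day 0 by the E14 to CJ7 ratio gave 3437 lower, and the cause was not tested. Under that setting the log2 ratio turned to -0.31 for Cldn7 and -3.59 for Meis2. With CJ7 ESCs as day 0 it turned to 1.39 for Cubn, 2.76 for Hoxd11 and 2.71 for Sox17. With E14 ESCs as day 0 it turned to 2.49 for Cubn, -0.042 for Gli1, 2.78 for Hoxd11, 0.15 for Phf19 and 2.52 for Sox17. Of 180 named genes, beside those that turned, 82 moved by 1.5-fold or more or passed over the 2-fold line with a pseudocount of 1. The number was 24 with none, 83 under the batch correction and 0 with 75th percentile scaling. With CJ7 ESCs as day 0, 91 moved, 3 turned and 65 stayed, and with E14 ESCs 91, 5 and 65. The remaining named genes were not counted with CJ7 or E14 ESCs as day 0. No paired analysis was possible because each line has 1 library at each time and no test was made. Leaving out a replicate was not possible for the same reason. FPKM without read counts gives no counting error, so levels under 1 FPKM, and each fold that rests on one, have unknown precision.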

Other observations

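The 18 comparable imprinted genes summed to 884 FPKM in Eednull ESCs and 2643 at day 5. Of these, 9 rose and 4 fell in Eednull, with a median log2 ratio of 0.85, against 0.05 in E14 and 0.70 in Suz12delta. The growth regulator Igf2 rose from 43.9 to 177 FPKM and the neighbouring noncoding RNA H19 from 286 to 793, while E14 had 7.11 and 1.92 at day 5. Peg3, Mest, Plagl1, Nnat and Dlk1 rose from 37.5 to 335, from 116 to 338, from 10.97 to 101.4, from 15.2 to 143 and from 13.3 to 233 FPKM. Grb10, a growth inhibitor, fell from 29.97 to 8.20 FPKM against a rise from 69.3 to 239.9 in E14, and Snrpn fell from 44.6 to 11.01. Meg3 and Rian, noncoding RNAs of 1 locus, were at 269 and 122 FPKM at day 5 in Eednull and at 0.890 and 1.12 in Suz12GT. Alleles cannot be told apart in these values.

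Germline genes fell in 9 of 11 comparable cases, with a median of -2.20, and Stra8, a retinoic acid target of meiotic entry, rose from 8.65 to 20.4 FPKM, whereas it fell from 6.86 to 2.17 in E14. Of 16 BMP, Wnt and FGF target genes 6 fell and 3 rose, with a median of 0.17 that was -0.75 under the batch correction. Etv5, Etv4, Spry2 and Spry4, which report FGF signalling, fell from 91.3 to 4.02, from 25.9 to 3.13, from 27.8 to 4.73 and from 11.2 to 0.772 FPKM. Id2 and Id3, which report BMP signalling, rose from 9.77 to 22.1 and from 20.7 to 53.4 FPKM, but had log2 ratios of 0.52 and 0.32 under the batch correction, by which 1 gene of the list was higher and 7 lower. Of 7 RNA-binding and Hmga genes 2 rose and 2 fell, with Lin28a lower, from 51.1 to 4.72 FPKM, and Hmga2 higher, from 28.3 to 60.1. Of 10 genes of the amino acid stress response 4 fell, Asns from 96.1 to 29.7 FPKM among them, and Slc7a11 rose from 7.41 to 15.6. Under the batch correction 0 of these were higher and 9 lower, with a median of -2.02, and with E14 ESCs as day 0 the counts were 0 and 8. Of 7 comparable DNA methylation genes 1 rose and 2 fell, and of 7 cardiac genes 2 and 2. The 9 blood and endothelium genes had 4 higher and 3 lower under the batch correction, 5 and 2 with CJ7 ESCs as day 0 and 7 and 2 with E14 ESCs.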
